A study of Mus musculus with 18 samples.

Results

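The 7 genes described here write, maintain or remove methyl groups on DNA: Dnmt1, Dnmt3a, Dnmt3b, Uhrf1, Tet1, Tet2 and Tet3. They were taken by gene symbol as a functional set, and all 7 were found among the 45706 genes of the deposited tables and passed the filter on low counts. RNA was sequenced from 18 cultures of OT-I CD8+ T cells, which carry a transgenic T cell receptor for an ovalbumin peptide and came from C57BL/6 mice labelled wild type. Cells of the repeat groups received the ovalbumin peptide daily, the in vitro model of exhaustion, whereas cells of the single groups received it once and were then rested, all with IL-7 and IL-15. On day 5 each culture was given DMSO or 1 µM ibrutinib, a covalent inhibitor of BTK and of related Tec kinases, and was harvested on day 8, with peptide kept in the repeat cultures. The groups held 4 libraries (repeat, DMSO), 5 (repeat, ibrutinib), 5 (single, DMSO) and 4 (single, ibrutinib).

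The labels carry 6 different entries in the genotype field, which were taken here as the names of experiments and are written as A to F. The labels do not say that an entry marks an experiment. The entry reads INHB-1 left over for A and PKC igoni-2 for F. Experiments A to D each supplied all 4 groups, E only a repeat ibrutinib library and F only a single DMSO library. The entries of B to E name a btk knockout although the strain entry of every sample reads wild type, and the study's methods describe no btk-deficient cells in the sequencing, so which applies cannot be told apart from the labels. The model is a culture of purified T cells, and the RNA comes from its live cells as a whole, so that a change in the share of dividing cells and a change of RNA per cell cannot be told apart.

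DNA methylation in mammals sits mainly on cytosines followed by guanine. Dnmt3a and Dnmt3b are the de novo methyltransferases, which place the mark on unmethylated DNA, and Dnmt1 copies it onto the new strand after replication. Uhrf1 binds hemimethylated DNA behind the replication fork and brings Dnmt1 to it. Tet1, Tet2 and Tet3 are oxygenases that turn 5-methylcytosine into 5-hydroxymethylcytosine and further oxidised forms, which are diluted at replication or cut out by repair enzymes. In CD8+ T cells de novo methylation by Dnmt3a is known to hold effector and exhaustion programmes in place, and Tet2 is known to shape memory differentiation. The transcripts measured here do not report enzyme activity or methylation.

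Total expected counts per library were between 23445922 and 51995372, with a median of 27420966. The summed TPM (a level corrected for gene length and library size) of 6 CD8 T cell markers lay between 2912 and 4220 in the 18 libraries. Summed TPM was at most 1.55 for the 2 CD4 T cell markers, 7.1 for the 5 B cell markers, 6.23 for the 5 myeloid markers and 1.84 for the 3 erythroid markers, of which 2 had no count in any library. The 2 NK cell markers summed to at most 11.36 except in a repeat ibrutinib library at 25.59.

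Per length, Dnmt1 and Uhrf1 had the highest levels in repeat peptide stimulated cells, at 143.5 ± 14.35 TPM (SD, n = 4) and 133.9 ± 24.8 TPM with DMSO. In these cells Dnmt3a followed at 29.07 ± 4.514 TPM, ahead of Tet2 at 13.65 ± 3.47 TPM and Tet3 at 12.29 ± 2.639 TPM, which did not differ beyond their spread. Dnmt3b stood at 5.315 ± 1.262 TPM, and Tet1, at 0.165 ± 0.137 TPM, was close to the lower limit of detection. With DMSO in single cells the order changed below Dnmt1, which had 65.69 ± 12.61 TPM (SD, n = 5). Uhrf1 had 41.94 ± 11.68 TPM and Tet3 30.08 ± 10.89 TPM there, values that overlapped between libraries, and Dnmt3a had 19.01 ± 5.608 TPM and Tet2 16.38 ± 7.445 TPM.

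The balance of the families differed accordingly between groups. The summed TPM of the 3 methyltransferases was 6.962 ± 1.089 times that of the 3 TET genes in repeat cells with DMSO, 5.432 ± 1.852 times with ibrutinib, 2.224 ± 0.9223 times in single cells with DMSO and 1.332 ± 0.2987 times with ibrutinib. Within the TET family Tet3 held 47.21% ± 3.358 of the TPM in repeat cells with DMSO, 52.91% ± 3.236 with ibrutinib, 65.19% ± 3.131 in single cells with DMSO and 72.69% ± 4.253 with ibrutinib. Tet2 held nearly all of the rest. Within the methyltransferases Dnmt1 held 80.75% ± 1.257 in repeat and 72.1% ± 5.927 in single cells with DMSO. These ratios are descriptions and were not tested.

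**Figure D1:**
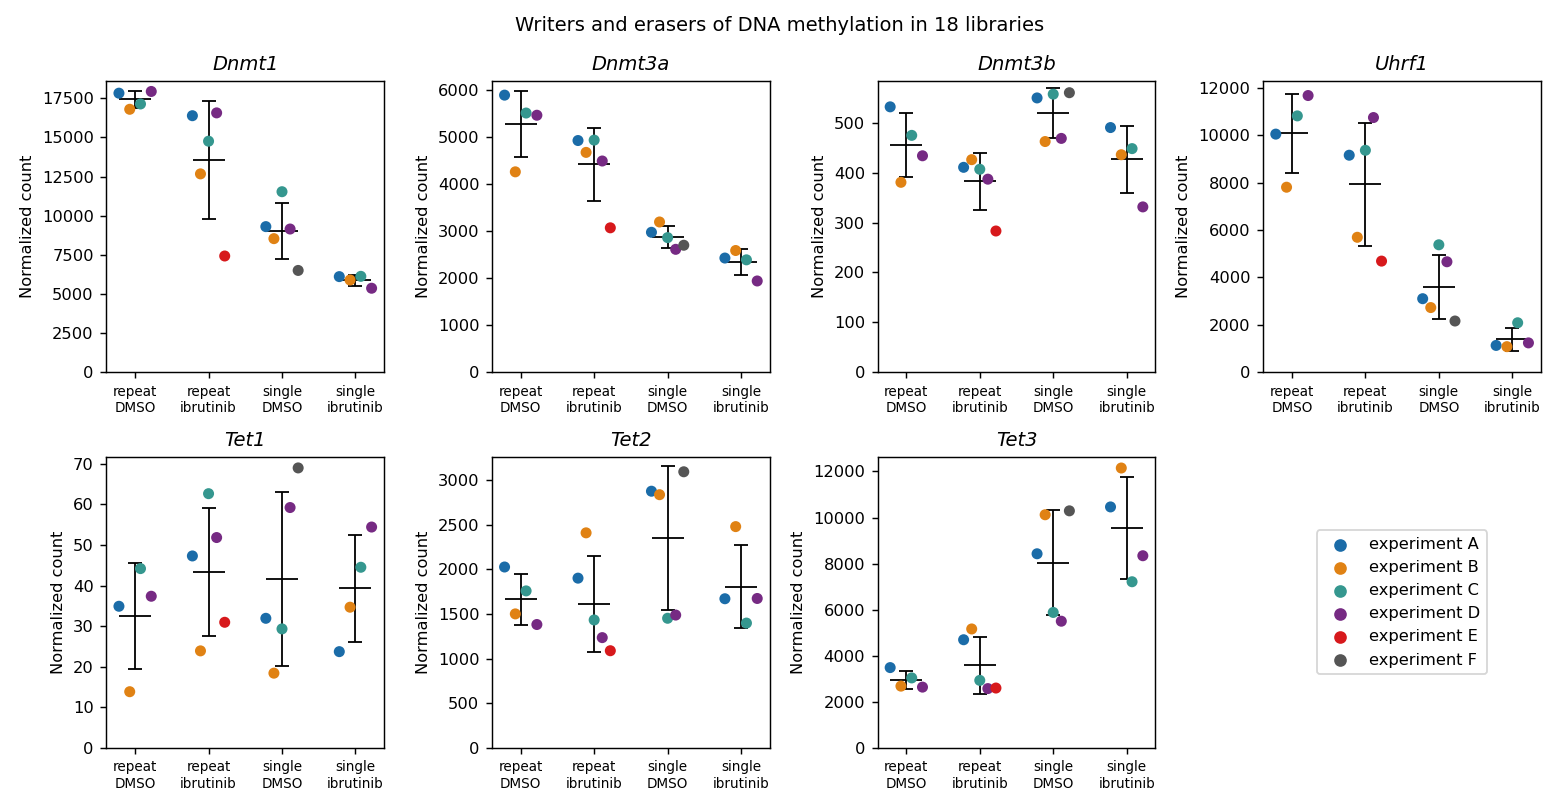
Normalized read count (y axis, linear from 0) of each gene in the 4 groups (x axis), 1 point per library coloured by experiment, with the group mean and SD as a bar. Dnmt1, Dnmt3a and Uhrf1 are higher, and Tet3 lower, in the repeat than in the single DMSO libraries without overlap in these counts. In TPM the Dnmt3a groups overlapped, and the share of all genes without overlap was not computed. The repeat ibrutinib library of experiment E is the lowest of its group for Dnmt1, Dnmt3a, Dnmt3b and Uhrf1.

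The first comparison asked how cells driven to exhaustion by repeat peptide differ from cells stimulated once, both with DMSO. Transcripts of the maintenance pair Dnmt1 and Uhrf1 and of the de novo enzyme Dnmt3a were higher in repeat cells, Tet3 was lower, and Dnmt3b, Tet1 and Tet2 did not pass the test. A gene was called where its adjusted p-value was under 0.05, its normalized counts averaged 50 or more and its log2 fold change exceeded 0.2 in either direction, and 4 of the 7 genes were called, 3 higher and 1 lower. Of all 12255 genes tested, 47.0% were called in this comparison, so the share among the 7 genes is near that of all genes. Where groups are said below not to overlap, in this or another comparison, the share of all genes for which this holds was not computed. The median log2 fold change was -0.19 over the 7 genes and -0.0022 over all genes tested.

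Uhrf1 had 10050, 7807, 10820 and 11680 normalized counts in the repeat libraries of experiments A to D, and 3098, 2723, 5375 and 4658 in the single libraries of the same experiments, with 2155 in F. All repeat libraries lay above all single libraries. The gene was 2.8-fold higher in repeat cells (log2 fold change 1.49, SE 0.277, 95% interval 0.906 to 2.07, adjusted p = 0.000203), the largest rise among the 7 genes.

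Dnmt1 had 17830, 16800, 17140 and 17940 normalized counts in the repeat libraries A to D, a spread of 548 (SD). The single libraries held 9298, 8529, 11530, 9144 and, in F, 6496. The groups did not overlap, and Dnmt1 was 1.94-fold higher in repeat cells (log2 fold change 0.95, SE 0.181, adjusted p = 0.000245).

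RefSeq promoter windows (GRCm38.p6, 250 bases before to 50 after a start site) were found for all 7 genes, 12 windows in all. They were searched on both strands for 4 spellings of the E2F site, the element of many genes of S phase: TTTCCCGC, TTTGGCGC, TTTCGCGC and TTTGCCGC. Dnmt1 and Uhrf1 were the 2 of 7 genes with a match, against 2.6% of the 27025 genes with a window (2.26% of 32851 windows). These shares are not from like windows. Each of the 4 spellings holds the letters CG, of which the median window of the 7 genes had 26 and the median of all windows 7. Dnmt3a, which was also higher with repeat peptide, had no match in its 3 windows. Of the 18 replication genes with a window 8 held a match (44.4%), and of the 12 mitosis genes with a window 1 did. Differences between these shares were not tested. Such a match is a description of letters, not a site or a cause. Dnmt1 had 2 matches in 1 of its 3 windows, shown as 30 bases each on the minus strand of GRCm38 with the match in capitals, the first (chr9:20952824-20952853) reading the element as its reverse complement in an exon of transcripts Dnmt1-201 and Dnmt1-205, the second (chr9:20952574-20952603) in an exon of Dnmt1-203. The Uhrf1 match began at position -185 from the start site of the second of its 2 windows, in an intron of the longer annotated gene, shown as the 250 bases before that start (chr17:56304063-56304312, plus strand).
Dnmt1, first match: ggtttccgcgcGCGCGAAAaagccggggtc
Dnmt1, second match: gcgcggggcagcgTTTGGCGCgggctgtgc
Uhrf1: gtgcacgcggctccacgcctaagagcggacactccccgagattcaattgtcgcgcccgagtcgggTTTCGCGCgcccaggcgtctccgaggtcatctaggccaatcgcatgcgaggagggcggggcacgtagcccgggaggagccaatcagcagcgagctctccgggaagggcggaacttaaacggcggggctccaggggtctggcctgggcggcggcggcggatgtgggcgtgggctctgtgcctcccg

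The windows were also counted for CpG, the dinucleotide that these enzymes act on. The median window of the 7 genes held 26 CpG dinucleotides and was 70.5% G or C, against 7 and 52.7% over all windows. The windows of the replication genes and of the mitosis genes had medians of 21 and 24 CpG, close to that of the 7 genes, and their median ratios of observed to expected CpG, 0.81 and 0.95, were above the 0.65 of the 7 genes. Among the 7 genes Tet2 had the most, at 57, with a ratio of 1.17, and the upstream Dnmt1 window (chr9:20959839-20960138) had the fewest, at 2 and 0.1.

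Dnmt3a had 5881, 4252, 5501 and 5454 normalized counts in the repeat DMSO libraries A to D and 2968, 3187, 2855, 2606 and 2693 in the single libraries A to D and F. In these counts the lowest repeat library lay above the highest single library, while in TPM the groups overlapped (22.93 to 33.1 against 11.82 to 27.15). Dnmt3a was 1.84-fold higher in repeat cells (log2 fold change 0.88, SE 0.13, adjusted p = 2.05e-05). The difference was smaller per length, at 0.47 with the effective length of each library as an offset (adjusted p = 0.0272), and was not called by limma on log2(TPM + 1) at 0.62 (adjusted p = 0.0698). The mean length of its assigned transcripts was also higher in the repeat libraries, though not called after adjustment (exact permutation test, adjusted p = 0.148), as given further on.

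Dnmt3b, the other de novo enzyme, had 532.7, 381.1, 475.4 and 434.4 normalized counts in the repeat libraries and 550.6, 463, 558.2, 469.3 and 561.1 in the single libraries. The groups overlapped and the log2 fold change was -0.19 (SE 0.144, 95% interval -0.493 to 0.112, adjusted p = 0.277). With the effective length of each library as an offset Dnmt3b was called lower, at -0.435 (adjusted p = 0.0497). The 2 de novo enzymes thus gave values on opposite sides of zero in this comparison.

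Tet3 had 3481, 2676, 3033 and 2633 normalized counts in the repeat libraries A to D, against 8425, 10120, 5877, 5496 and 10290 in the single libraries A to D and F. Every single library lay above every repeat library. Tet3 was 2.72-fold lower in repeat cells (log2 fold change -1.44, SE 0.242, adjusted p = 7.46e-05).

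For Tet3 the 250 bases before its RefSeq start (chr6:83441679-83441928, minus strand, in an intron of the longer annotated gene) held none of the 4 spellings, which says only that these letters are absent from this window. It is shown as the window of the one gene of the 7 that was called lower with repeat peptide.
Tet3: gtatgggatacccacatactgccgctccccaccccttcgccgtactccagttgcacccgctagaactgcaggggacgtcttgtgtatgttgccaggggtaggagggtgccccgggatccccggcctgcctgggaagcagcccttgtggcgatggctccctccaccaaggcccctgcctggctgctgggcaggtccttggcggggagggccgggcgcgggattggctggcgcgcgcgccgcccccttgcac

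Tet2 had 2027, 1501, 1759 and 1382 normalized counts in the repeat libraries and 2877, 2838, 1452, 1488 and 3095 in the single libraries. The single libraries A, B and F were above all repeat libraries, and C and D lay within them. The log2 fold change was -0.50 (SE 0.26, 95% interval -1.04 to 0.049, adjusted p = 0.116), and it was called without the single DMSO library of experiment C (-0.63, adjusted p = 0.0455) or of D (-0.62, adjusted p = 0.0477).

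Tet1 had 13.82 to 44.18 normalized counts in the repeat and 18.39 to 69.01 in the single DMSO libraries. Its mean of 39.56 over all libraries is below the 50 required for a call, so Tet1 could not be called in any comparison and its values are given as descriptions. The log2 fold change here was -0.35 with a 95% interval of -1.26 to 0.559.

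The same 4 genes were called when repeat and single cells were compared with ibrutinib in both, where 38.4% of all genes were called. Uhrf1 had 4686 to 10750 normalized counts in the 5 repeat libraries and 1072 to 2081 in the 4 single libraries, a 5.76-fold difference (log2 fold change 2.53, SE 0.3, adjusted p = 2.81e-06). Dnmt1 was 2.31-fold higher in repeat cells (log2 fold change 1.21, SE 0.187, adjusted p = 4.97e-05), with 7419 to 16570 against 5358 to 6119 counts. Dnmt3a was 1.89-fold higher (log2 fold change 0.92, SE 0.133, adjusted p = 2.47e-05). Tet3 was 2.66-fold lower (log2 fold change -1.41, SE 0.234, adjusted p = 9.9e-05), with 2569 to 5159 counts against 7210 to 12150. In normalized counts the groups did not overlap for any of these 4 genes, and the share of all genes for which this holds was not computed. In TPM the groups stayed apart for Uhrf1 only. They overlapped for Dnmt1 (41.72 to 143.5 against 32.68 to 47.6), Dnmt3a (11.47 to 36.58 against 8.99 to 15.37) and Tet3 (7.26 to 23.62 against 20.23 to 47.17). Dnmt3b and Tet2 had log2 fold changes of -0.16 (SE 0.144, adjusted p = 0.399) and -0.16 (SE 0.257, adjusted p = 0.636). This comparison shares no library with the one made in DMSO, though experiments A to D supplied both.

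**Figure D2:**
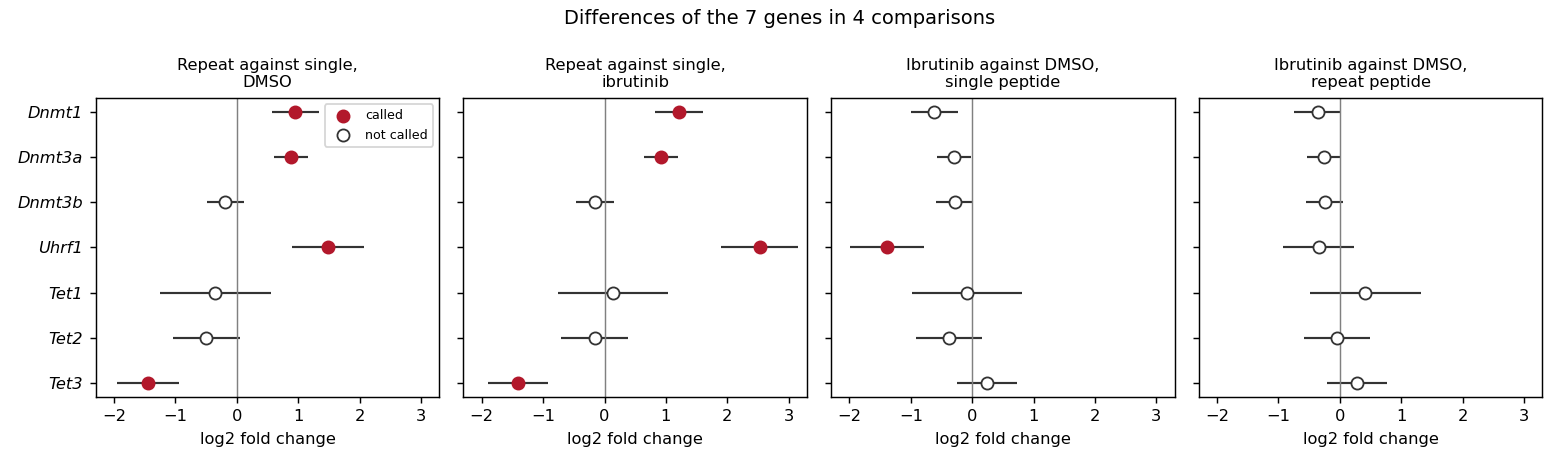
Log2 fold change (x axis) of each of the 7 genes with its 95% interval (line) in 4 comparisons (panels); filled points were called, open points were not. Uhrf1, Dnmt1 and Dnmt3a lie to the right of zero and Tet3 to the left in both comparisons of repeat with single peptide, and Uhrf1 at -1.39 is the called gene with ibrutinib in single peptide stimulated cells.

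Ibrutinib was then compared with DMSO in single peptide stimulated cells. Uhrf1 was the member called lower, and Dnmt1 had the next largest difference. Of the 7 genes 1 was called, against 3.04% of all genes, with 330 called lower and 43 called higher. Uhrf1 had 1124, 1072, 2081 and 1231 normalized counts in the ibrutinib libraries A to D, each below its own DMSO library, and the highest of them was below the lowest DMSO library, F, at 2155. It was 2.62-fold lower with ibrutinib (log2 fold change -1.39, SE 0.287, 95% interval -1.99 to -0.785, adjusted p = 0.0117). The differences within experiments A to D were -1.46, -1.35, -1.37 and -1.92 on the log2 scale. Without the ibrutinib library of experiment A the call was lost, at -1.31 (adjusted p = 0.0544), with little change in size.

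Dnmt1 had 6101, 5885, 6119 and 5358 normalized counts with ibrutinib, all below the lowest DMSO library at 6496. Its log2 fold change was -0.62 (SE 0.184, adjusted p = 0.0828), which did not pass the threshold. Deviations from the group means were positively correlated in all 24 pairs of libraries that shared an experiment, so a fit with the experiment as a block was also made. In that fit 9.09% of all genes and 3 of the 7 genes were called: Uhrf1 at -1.51 (adjusted p = 1.15e-05), Dnmt1 at -0.71 (adjusted p = 0.000126) and Dnmt3a at -0.32 (adjusted p = 0.0494). Dnmt1 was also called by edgeR without the DMSO library of experiment F, at -0.71 (adjusted p = 0.0339).

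Dnmt3a had 2421, 2581, 2383 and 1934 normalized counts with ibrutinib, below all 5 DMSO libraries, and a log2 fold change of -0.30 (SE 0.132, adjusted p = 0.314) without the block. In TPM its groups overlapped, at 8.99 to 15.37 with ibrutinib and 11.82 to 27.15 with DMSO. Dnmt3b was lower in 4 of 4 experiments, with log2 differences of -0.5 to -0.085, with overlapping groups and a log2 fold change of -0.28 (SE 0.145, adjusted p = 0.41). Tet3 had 10460, 12150, 7210 and 8340 normalized counts with ibrutinib, each above its own DMSO library by 0.265 to 0.602 on the log2 scale. The log2 fold change of Tet3 was 0.25 (SE 0.232, 95% interval -0.24 to 0.734, adjusted p = 0.746), and the groups overlapped. Tet2 had a log2 fold change of -0.38 (SE 0.259, adjusted p = 0.596).

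In repeat peptide stimulated cells, where the study asked whether ibrutinib shifts exhausted cells, 0 of the 7 genes were called by edgeR, against 5.92% of all genes, 0 at an unadjusted p under 0.05 and 0 by DESeq2. With DMSO Dnmt1 had 16800 to 17940 normalized counts. With ibrutinib it had 16390, 12670, 14760 and 16570 in experiments A to D and 7419 in E, so that the groups did not overlap in these counts. In TPM the groups overlapped, at 127.4 to 162.3 with DMSO and 41.72 to 143.5 with ibrutinib. The log2 fold change of Dnmt1 was -0.36 (SE 0.181, 95% interval -0.741 to 0.018, adjusted p = 0.253). All 4 experiments with both libraries gave a lower value with ibrutinib, with log2 differences of -0.407 to -0.115. Uhrf1 was likewise lower in 4 of 4 experiments, with differences of -0.456 to -0.12 and a log2 fold change of -0.35 (SE 0.275, 95% interval -0.922 to 0.229, adjusted p = 0.493). Dnmt3a gave -0.26 (SE 0.13, adjusted p = 0.258) and Dnmt3b -0.25 (SE 0.144, adjusted p = 0.328), with experiment B on the other side of zero for both. Tet3 gave 0.28 (SE 0.235, adjusted p = 0.522), with 0.43 and 0.947 in experiments A and B and -0.052 and -0.036 in C and D. Tet2 gave -0.05 (SE 0.258, 95% interval -0.588 to 0.493). Tet1 had a higher value with ibrutinib in 4 of 4 experiments, with differences of 0.439, 0.789, 0.504 and 0.473, on few counts, and a log2 fold change of 0.41 (SE 0.432, 95% interval -0.494 to 1.32, adjusted p = 0.623).

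The repeat ibrutinib library of experiment E, which has no DMSO partner, stood apart. It held 7419 normalized counts of Dnmt1, 3063 of Dnmt3a, 283.3 of Dnmt3b and 4686 of Uhrf1, each the lowest of its group. Its summed TPM over 21 genes of DNA replication and S phase was 1271 against 1899 to 2573 in the other 4 libraries, and over 14 mitosis genes 624.9 against 1251 to 1588. Without it the log2 fold changes with ibrutinib were -0.21 for Dnmt1 (adjusted p = 0.43), -0.15 for Dnmt3a (adjusted p = 0.483) and -0.21 for Uhrf1 (adjusted p = 0.727). In the comparison of repeat with single cells under ibrutinib the same 4 genes were called without it, with Dnmt1 at 1.36, Dnmt3a at 1.03, Uhrf1 at 2.67 and Tet3 at -1.32.

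**Figure D3:**
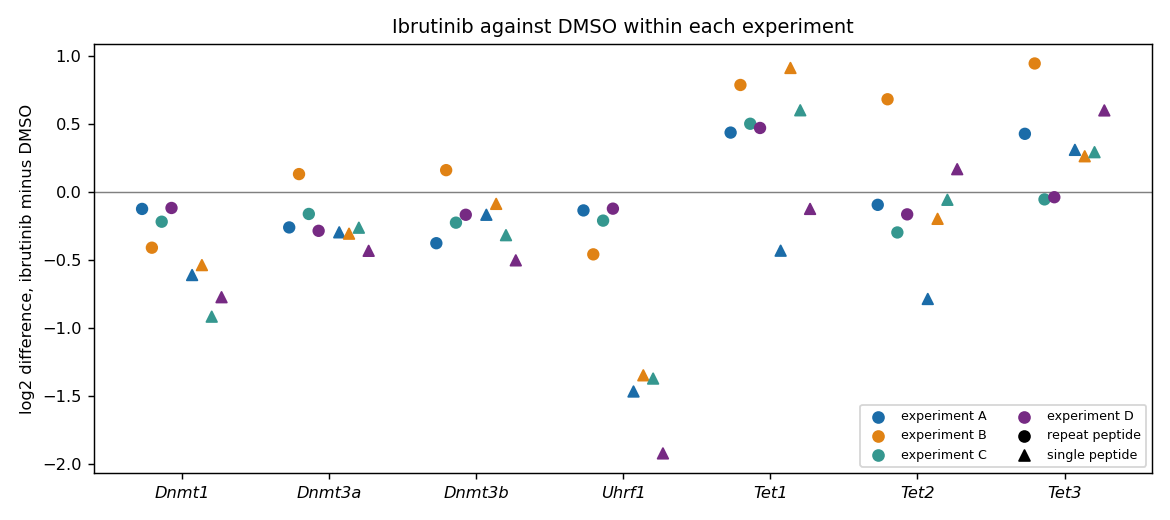
Difference of log2 normalized counts, ibrutinib minus DMSO (y axis), for each gene (x axis) in experiments A to D, circles for repeat and triangles for single peptide stimulated cells. All 4 triangles of Uhrf1 lie between -1.92 and -1.35 while its circles lie between -0.456 and -0.12, and those of Dnmt1 show the same order at a smaller size.

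The difference between the ibrutinib effects in repeat and in single cells was tested as an interaction, in which a positive value means a less negative effect in repeat cells. For Uhrf1 it was 1.04 (SE 0.395, 95% interval 0.213 to 1.87, unadjusted p = 0.0165, adjusted p = 0.265) and for Dnmt1 0.26 (SE 0.257, adjusted p = 0.824). None of the 7 genes was called by edgeR without the block, against 1.26% of all genes, and Uhrf1 was the 1 gene at an unadjusted p under 0.05. With the experiment as a block 5.54% of all genes and 2 of the 7 were called, Uhrf1 at 1.29 (adjusted p = 0.00107) and Dnmt1 at 0.50 (adjusted p = 0.0332). For the other 5 genes the interaction without the block was between 0.032 and 0.493 and not called under either fit. The calls with the block were not particular to Uhrf1 and Dnmt1. In that fit 9 of 21 genes of DNA replication and S phase and 7 of 14 mitosis genes were also called higher. The medians of these 2 lists were 0.53 and 0.94, and without the block 0 genes of either list were called.

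Dnmt1 and Uhrf1 act at the replication fork, and the genes of replication moved in the same comparisons. Of 21 genes of DNA replication and S phase, such as the Mcm helicase subunits, Pcna and Cdc6, all 21 were called higher in repeat than in single cells with DMSO, with a median log2 fold change of 1.23. All 14 mitosis genes were called higher, with a median of 1.81, against 22.8% of all genes called higher. With ibrutinib in single cells 9 of the 21 were called lower, with a median over the list of -0.82. All 14 mitosis genes were called lower, with a median of -1.19, against 2.69% of all genes called lower. Under the block 20 of 21 and 14 of 14 were called lower, against 9.09% of all genes called in either direction. In repeat cells ibrutinib gave medians of -0.35 and -0.48, with 0 of 21 and 0 of 14 called without the block and 4 and 2 lower with it. With the block 1694 of all 12255 genes were called there in either direction, so these 4 and 2 calls are not read as a result about the lists. Beside these medians, Uhrf1 at 1.49, -1.39 and -0.35 and Dnmt1 at 0.95, -0.62 and -0.36 had the same signs in all 3 comparisons, and Dnmt3a did so at 0.88, -0.30 and -0.26. Whether the members moved other than with the share of cycling cells was not tested.

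Set against the summed TPM of the 21 replication genes in the same library, Dnmt1 was 5.07% ± 0.248 (SD, n = 4) in repeat DMSO, 4.95% ± 1.17 (n = 5) in repeat ibrutinib, 6.15% ± 0.96 (n = 5) in single DMSO and 5.97% ± 0.915 (n = 4) in single ibrutinib libraries. The ranges of the 4 groups overlapped. Uhrf1 was 4.71% ± 0.674, 4.65% ± 0.806, 3.83% ± 0.335 and 2.27% ± 0.322 in the same order. In single cells its 4 ibrutinib values, 2.07% to 2.75%, lay below the 5 DMSO values, 3.33% to 4.13%. Dnmt3a was 1.02% ± 0.114, 1.21% ± 0.35, 1.84% ± 0.676 and 1.76% ± 0.315 in that order, so that against this sum its mean was lower in repeat than in single cells, with DMSO ranges (0.881% to 1.13% and 1.03% to 2.41%) that overlapped. These percentages are descriptions and were not tested.

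**Figure D4:**
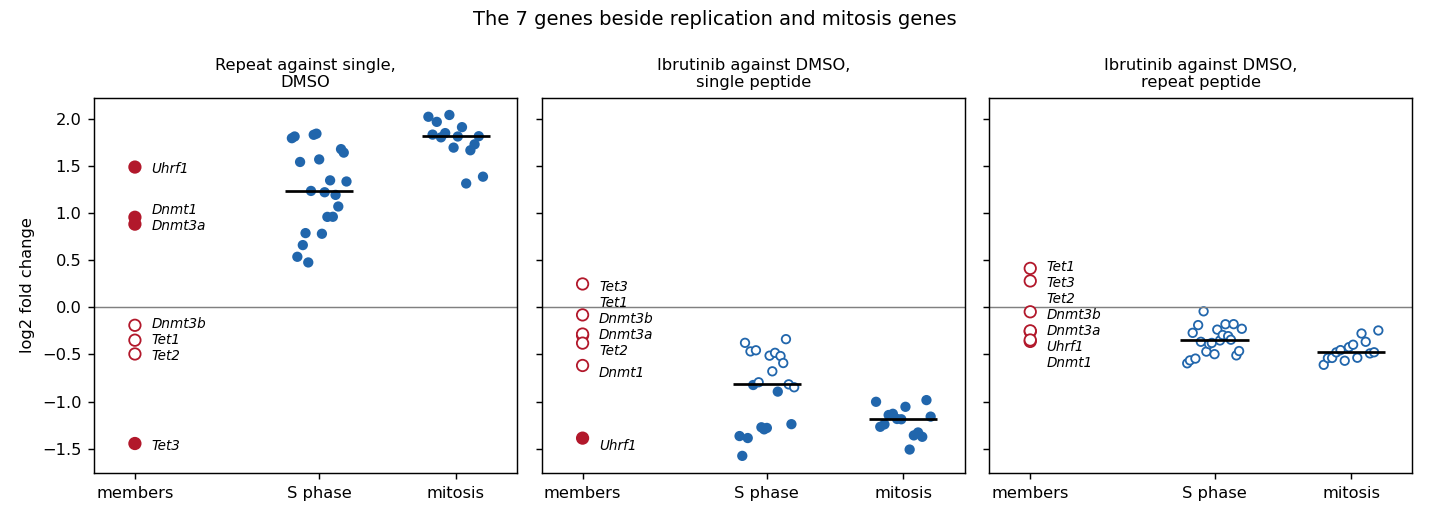
Log2 fold change (y axis) of the 7 genes (red) and of 21 replication and S phase and 14 mitosis genes (blue) in 3 comparisons (panels); filled points were called and black lines mark the medians of the lists. Uhrf1 at 1.49 and -1.39 lies within the range of the replication genes in the first 2 panels. Tet3 lies on the other side of zero from the medians of the lists in each panel, but was called in the first panel only.

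Deviations from the group means of log2 counts were correlated over the 18 libraries at r = 0.947 between Tet2 and Tet3, 0.801 between Dnmt3a and Dnmt3b and 0.771 between Dnmt1 and Uhrf1. The writers also correlated across these pairs, at 0.675 between Dnmt1 and Dnmt3a and 0.536 between Dnmt1 and Dnmt3b, whereas Uhrf1 gave 0.362 with Dnmt3a and 0.281 with Dnmt3b. Tet1 gave at most 0.386, with Uhrf1. Between Uhrf1 and Tet3 the value was -0.543. These are descriptions over libraries that share experiments, depth and treatment and carry no p-value. With DMSO in single cells experiments A, B and F had 8425 to 10290 counts of Tet3 and 2838 to 3095 of Tet2, while C and D had 5496 to 5877 and 1452 to 1488. This order did not hold in every group: with DMSO in repeat cells B lay below C for Tet3 (2676 against 3033) and for Tet2 (1501 against 1759), and with ibrutinib in single cells Tet2 was 1671 in A and 1674 in D.

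Among all genes tested, those whose log2 CPM (counts scaled to library size) was most like that of a member over the 18 libraries were, for Dnmt1, Pole (r = 0.988), which encodes a replicative DNA polymerase, Ckap5 (0.982) and Mast2 (0.982). For Uhrf1 they were Mcm10 (0.993), a replication initiation factor, Dtl (0.992) and Lmnb1 (0.992). For Dnmt3a they were Ppp1r16b (0.978), Arhgap21 (0.971) and Dclk2 (0.97), and for Dnmt3b they included Ercc6l2 (0.831) and Irf2bp2 (0.807). Tet2 was most like Nktr (0.963), Luc7l2 (0.941) and Rbm26 (0.941), and Tet3 most like Cdk13 (0.981), Hipk1 (0.98) and Tnrc6b (0.978). The values for Tet1, at most 0.801 with Ccin, rest on few counts. All of these values are over the 4 groups together and so include the differences between groups. Over the 9 single libraries alone r was lower for Dclk2 (0.73), Ercc6l2 (0.55) and Irf2bp2 (0.64), while Pole (0.981) and Mcm10 (0.989) stayed near their values above.

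The deposited mean transcript length of a gene, weighted by the abundance of its transcripts, gives a readout of which transcripts the reads were assigned to. Dnmt3a has 18 annotated transcripts, among them Dnmt3a-201 of 9685 bases and the shorter Dnmt3a-203 of 5424 bases. Its mean length was 8408, 7332, 8255 and 7160 bases in the repeat DMSO libraries A to D and 4898, 6443, 6205, 7064 and 5675 bases in the single libraries A to D and F. The repeat libraries lay above the single ones by a mean of 1732 bases (two-sided exact permutation test, p = 0.0159, adjusted p = 0.148 over 28 tests). With ibrutinib the repeat and single ranges overlapped (mean difference 163.1 bases, exact permutation p = 0.778).

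Tet3 had mean lengths of 10447.86 to 10521.89 bases in the single ibrutinib libraries, above the 10281.07 to 10399.67 bases with DMSO (difference 153.9 bases, exact permutation p = 0.0159, adjusted p = 0.148). They also lay above the repeat ibrutinib libraries (repeat minus single -197.6 bases, exact permutation p = 0.0159, adjusted p = 0.148). The smallest p that 4 against 5 libraries allow is 0.0159, and 3 of the 28 tests reached it, with none under 0.05 after adjustment. Dnmt1 stayed within 5322.68 to 5335.81 bases in all 18 libraries. The transcript models cannot be separated further from values per gene.

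**Figure D5:**
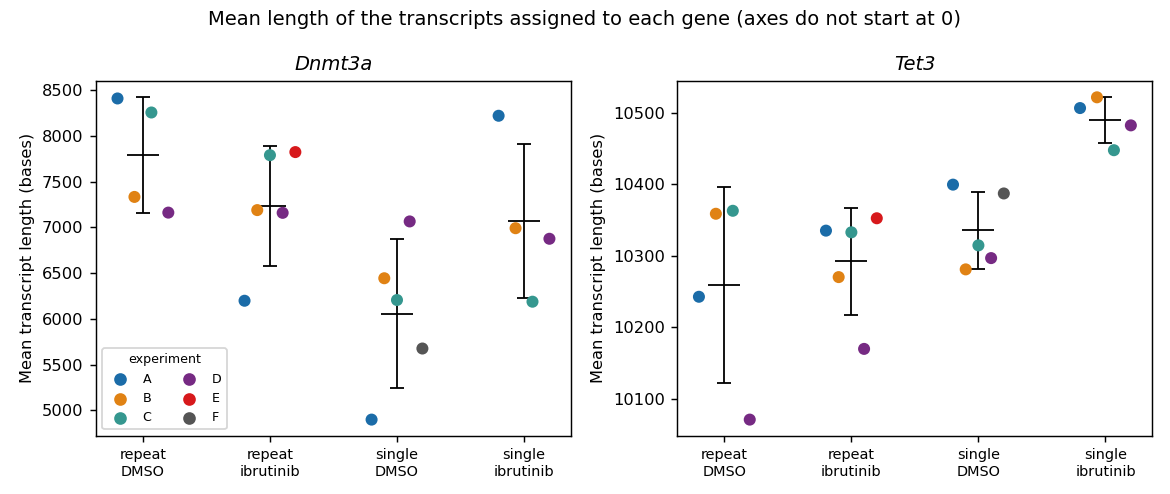
Mean transcript length in bases (y axes, not starting at 0) of Dnmt3a and Tet3 in the 4 groups (x axis), 1 point per library coloured by experiment, with the group mean and SD. The 4 repeat DMSO libraries of Dnmt3a lie above the 5 single DMSO libraries, and the 4 single ibrutinib libraries of Tet3 lie above all others.

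The partners of the writers were taken from a list of 14 genes, of which 11 were tested. In repeat against single cells with DMSO 3 were higher and 3 lower, so that 6 of 11 were called, near the 47.0% of all genes. Hells, a chromatin remodeller needed for DNA methylation, was 3.33-fold higher (log2 fold change 1.73, SE 0.163, adjusted p = 1.21e-07), Cdca7, its partner, gave 0.84 (adjusted p = 0.000783) and Uhrf2, a relative of Uhrf1, 0.37 (adjusted p = 0.000911). Ibrutinib in single cells lowered Hells, at -0.77 (adjusted p = 0.0161), and in repeat cells Hells gave -0.52 (adjusted p = 0.0606). Dnmt3l, the cofactor of germ cells, was not tested for want of counts.

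Of 14 genes that act after TET oxidation, 4 were higher and 1 lower in repeat cells with DMSO, a smaller share than the 47.0% called over all genes. Tdg, the glycosylase that removes oxidised methylcytosine, was higher by a log2 fold change of 0.85 (SE 0.113, adjusted p = 6.2e-06) and Neil3, a further glycosylase, by 1.34 (adjusted p = 8.37e-05), whereas Smug1 gave -1.34 (adjusted p = 0.000138). Neil3 was the gene of this list called lower with ibrutinib in single cells, at -1.36 (adjusted p = 0.00592), and none was called in repeat cells. Of the 8 TET partners and regulators 6 were tested, 3 higher and 3 lower with repeat peptide, against the same 47.0%: Cxxc5, a CXXC protein that binds Tet2, gave 2.45 (adjusted p = 4.01e-05) and Idh2, a source of the TET cosubstrate 2-oxoglutarate, -0.73 (adjusted p = 0.000682). None of these was called with ibrutinib against DMSO in either kind of cell. Calls for this and the other lists besides replication and mitosis come from the fit without the block. Those lists were not read with the block.

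Among 13 readers of methylated or unmethylated CpG, 2 were higher and 7 lower in repeat cells with DMSO, where 22.8% of all genes were called higher and 24.2% lower. Zbtb4, a zinc finger protein that binds methylated CpG, gave -1.84 (SE 0.166, adjusted p = 7.1e-08) and was the only reader called with ibrutinib in repeat cells, where it was 2-fold higher (log2 fold change 1.00, SE 0.162, adjusted p = 0.00101). Kdm2b and Zbtb38 gave 0.79 (adjusted p = 6.71e-05) and 1.09 (adjusted p = 8.25e-05) with repeat peptide. Of 14 genes of the S-adenosylmethionine cycle, which supplies the methyl group, 5 were higher and 4 lower with repeat peptide, against 47.0% of all genes called, led by Shmt1 at 1.08 (adjusted p = 1.23e-05), Mthfd2 at 0.77 (adjusted p = 2.36e-05) and Ahcyl2 at -0.71 (adjusted p = 3.56e-05). Ibrutinib in repeat cells lowered 2 of the 14, against 5.92% of all genes called in either direction and 1.92% lower. They were the methionine and leucine transporter subunit Slc7a5 at -0.57 (adjusted p = 0.0319) and the mitochondrial folate enzyme Mthfd2 at -0.42 (adjusted p = 0.034).

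Genes of the germ line that DNA methylation is known to keep silent were at low levels, apart from Stag3, which encodes a meiotic cohesin subunit and held 1.322 to 2.834 TPM in the group means. The summed TPM of 14 such genes, among them Dazl, Ddx4 and Sycp1, was between 0.98 and 5.28 in the 18 libraries, and 2 of the 14 had enough counts to be tested. Stag3 and Brdt were these 2, and neither was called in any of the 5 tests, Brdt because its mean count was under 50 (log2 fold change 2.06 with repeat peptide in DMSO, adjusted p = 0.00065).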

How the data were processed

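RNA-seq of 18 libraries in 4 groups was analysed, grouped from the sample titles. Per the labels and the study's methods, the authors trimmed poly(A) RNA reads with Trim Galore and used STAR inside RSEM 1.3.1 on GRCm38 with Ensembl genes. The deposited expected counts are RSEM estimates by the authors and need not be whole, and the deposited TPM was scaled by the authors to a common total. The deposited mean and effective transcript lengths are in bases. Their DESeq2 1.30.0 test was not used.

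Expected counts were rounded. Of 45706 genes, 45143 matched GENCODE M21, and 27903 protein-coding or lncRNA genes (98.457% of counts) entered edgeR 4.0.16 (R 4.3.3): filterByExpr (12255 genes), TMM, glmQLFit and glmQLFTest over all 4 groups, with Benjamini-Hochberg adjustment over all genes. Reads shared with other genes were divided by RSEM. Genes were called below an adjusted p-value of 0.05, from 50 normalized counts on average and beyond a log2 fold change of 0.2 either way. Intervals are 95%. Log2 CPM used a prior count of 2. Scripts were tested on simulated data.

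The members and lists were chosen with earlier results of these data known. The genes named are the 7 members, for each list up to 3 genes with the smallest adjusted p in repeat against single peptide with DMSO and up to 3 with ibrutinib in repeat cells, and the 3 most correlated genes per member. Of these, 2 genes are not reported here. Genes outside this rule (Dnmt3l, Dazl, Ddx4, Sycp1, and the replication genes named) serve as examples of their lists. Replicates were lettered by the genotype entries of the labels, taken as experiments. Deviations from group means correlated at 0.16 to 0.494 in the 24 same-experiment pairs (median 0.325). In the 97 other pairs they correlated at -0.44 to 0.404 (median -0.0765), so the ranges overlapped. The experiment was therefore used as a block in an alternative fit, not in the main one. No 2 libraries of a group agreed within sampling noise (lowest ratio of chi-square to its degrees of freedom 27.85). Alternatives used DESeq2 1.42.0 and limma 3.58.1 on log2(TPM + 1) and log2(TPM + 0.1).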

Additional observations from a re-analysis of the deposited data

Results flagged for a closer look

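Of 28 groups of 4 or 5 libraries (7 genes in 4 groups), 3 had a library far from the others by Dixon's gap test, where chance gives about 1.4. In the repeat ibrutinib group the library of experiment E had 3063 normalized counts of Dnmt3a against 4482 to 4926 in the other 4, and 283.3 of Dnmt3b against 387.4 to 426.6. In the single ibrutinib group the library of experiment C had 2081 normalized counts of Uhrf1 against 1072 to 1231 in the other 3.

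With the experiment as a block, the ibrutinib effect on the log2 scale differed between repeat and single peptide stimulated cells by 1.29 for Uhrf1 (adjusted p = 0.00107) and by 0.50 for Dnmt1 (adjusted p = 0.0332), both less negative in repeat cells. Without the block the adjusted p-values were 0.265 and 0.824. With the block 9 of 21 replication and S phase genes and 7 of 14 mitosis genes were called in the same direction.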

How the results depend on the processing

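Under every alternative run, the count of called members was 0 with ibrutinib in repeat cells and 4 for repeat against single peptide with ibrutinib. For repeat against single peptide with DMSO it was 4, except 5 with the effective length offset and without the single DMSO library of C or of D, and 3 with limma on TPM. With ibrutinib in single cells the count was 1, and 3 with the replicate block, 2 with the DESeq2 Wald test, 2 with experiments A to D only, 3 with these and the block (both chosen after seeing the data), and 0 to 2 without single libraries. The interaction count was 0, and 2 with the block, also with experiments A to D only. The block changed no other call. Transcript length gave 0 called tests throughout, which says little about stability. With 4 against 5 libraries the exact permutation test cannot give a p under 0.0159, and the 3 tests at that value had an adjusted p of 0.148.

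Of 791 values of single members, 744 kept direction and side of the threshold. Those that changed sign were of genes not called. With the block Tet2 in repeat cells gave 0.009 with ibrutinib, Tet1 in single cells 0.243 and Tet3 in the interaction -0.064. With experiments A to D only these genes gave 0.065, 0.172 and no change of sign, and with the block added 0.01, 0.243 and -0.063. Limma gave -0.032 and -0.037 for the Tet3 interaction with the pseudocounts 1 and 0.1. Leaving out single libraries gave -0.231 to 0.065 for Tet2 with ibrutinib in repeat cells, -0.283 to 0.172 for Tet1 in single cells, -0.021 to 0.361 for Tet1 and -0.33 to 0.029 for Tet2 in repeat against single cells with ibrutinib, and in the interaction -0.027 to 0.145 for Dnmt3a, -0.05 to 0.132 for Dnmt3b and -0.113 to 0.171 for Tet3. The cause was not tested.

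Over all genes, the counts called with ibrutinib in repeat cells, in single cells and in the interaction were 726, 373 and 154. They were 1694, 1114 and 679 with the block, 1152, 616 and 350 with DESeq2, 391, 161 and 77 with limma on log2(TPM + 1), and 272, 241 and 58 on log2(TPM + 0.1). The compared groups alone gave 464 and 181, and leaving out single libraries 354 to 874, 131 to 391 and 84 to 171. For repeat against single peptide limma on log2(TPM + 1) gave 4330 and 2994 in place of 5765 and 4703. Depth limits Tet1, with 39.56 normalized counts on average.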
